A study of Mus musculus with 18 samples.

Results

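The genes described here copy the genome in S phase: 39 genes of origin licensing, helicase activation, the replication fork, nucleotide supply, chromatin copying and the G1/S switch. They were taken by symbol, by a rule that uses none of their values. All 39 were found among the 16909 gene symbols of the table, and all 39 were among the 12465 genes that passed the filter on low counts. The samples were macrophages from mouse bone marrow, with 18 libraries made from their poly(A) RNA. Con was a mock group (n = 3) and LPS, bacterial lipopolysaccharide, served as the positive control for inflammation (n = 5). STSABs (n = 5) and UVABs (n = 5) were treated with apoptotic bodies (ABs), vesicles released by dying cells, from hucMSC induced with STS or with UV; the design text lists both as anti-inflammatory treatments, and the series title names mesenchymal stem cells. Strain, sex, dose, duration, and whether LPS was also given with the ABs are not stated in the labels. The labels do not tie replicates to separate animals or cultures, so p-values measure no more than how these libraries vary, and that variation may be technical.

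A cell copies its DNA once per division. In G1 the origin recognition complex, with Cdc6 and Cdt1, loads the ring of Mcm2 to Mcm7 on DNA, and at the G1/S switch E2F factors and cyclin E with its kinase start transcription of the S phase genes and firing of the loaded origins. Bone marrow macrophages are grown from dividing precursors, and LPS is known to stop macrophages from proliferating.

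Totals per library ran from 17588357 to 18675283 estimated counts. Levels are given in CPM, the usual count scaled to a common library total, after adjustment by TMM. That method computes a scaling factor for each library on the premise that most genes do not differ between libraries. The mean scaling factor was 1.51 in Con and lay between 0.90 and 0.93 in the other groups, so the choice of scaling moves every comparison with Con. With library totals alone the median log2 fold change of all genes tested, LPS against Con, was -0.78 in place of -0.03, and with upper-quartile scaling it was -0.31. The libraries numbered 2 of STSABs and UVABs stood apart from their groups. Of 12 macrophage markers, including Lyz2, Cd68, Csf1r and Adgre1, none was at 0 in any group; their summed level was 12090.4 to 12983 CPM in Con, 13308 to 14830.5 in LPS, 10592 to 12038 in STSABs and 11590.2 to 12888 in UVABs. Lyz2 supplied most of that sum. As a share of unscaled counts the sum was lower in LPS than in Con, with means of 1.26% and 1.89%. Of the 12, 4 were higher and 6 lower in LPS than in Con, with Csf1r, the growth factor receptor of macrophages, at 791 CPM in Con and 255 CPM in LPS.

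Against Con, LPS libraries held lower RNA of most replication genes. Of the 39 genes, 31 were lower and 6 higher in edgeR's quasi-likelihood F-test at a Benjamini-Hochberg adjusted p under 0.05, and 2 did not pass. Among all genes tested 43% were called lower and 40% higher. Of the 39, 17 were lower by at least 2-fold, a change called in 21% of all genes. The median log2 fold change of the 39 was -0.94, beside -0.03 over all genes tested; it was -1.22 with upper-quartile scaling and -1.68 with library totals. Of the 31 lower genes, 31 had every LPS library below every Con library, and of the 6 higher genes, 6 had every LPS library above; such separation was found downwards in 41.7% and upwards in 38.4% of all genes. The 6 higher genes were Mcm10, Gins2, Orc1, Pcna, Rfc3 and Tyms; with library totals alone Rfc3 and Tyms passed as higher, Pcna was called lower at -0.50, and 34 of the 39 were lower, while with upper-quartile scaling 5 were higher, 33 lower, and Pcna did not pass at -0.03. The share of all genes called lower moved as well, from 43% to 53.5% with upper-quartile scaling and 70.6% with library totals. In bulk RNA, fewer cells in S phase and less of these RNAs per cell cannot be told apart.

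**Figure D1:**
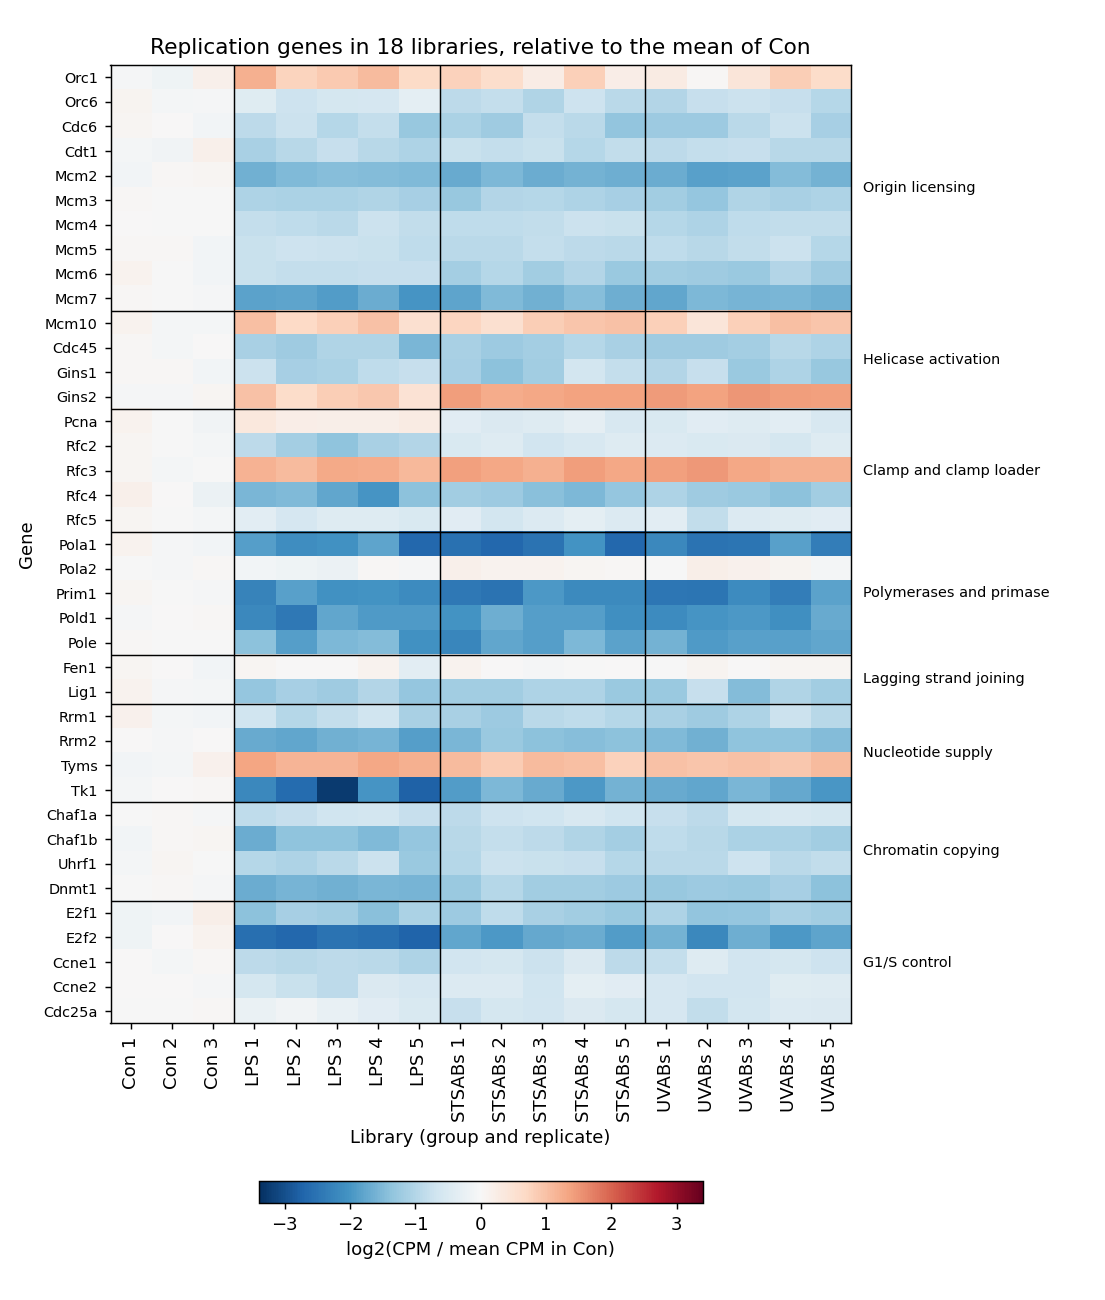
Heat map of the 39 replication genes (rows, ordered by role) in the 18 libraries (columns, 3 Con and 5 each of LPS, STSABs and UVABs); colour is log2 of a library's CPM over the mean CPM of Con, blue below and red above. Most rows are blue in all 15 libraries outside Con, and Orc1, Mcm10, Gins2, Rfc3 and Tyms are red in most of them under TMM scaling.

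The summed level of the 39 genes was 1248 ± 25.5 CPM (SD, n = 3) in Con and 742 ± 30.2 CPM (SD, n = 5) in LPS. As a share of unscaled counts it was 0.189% in Con and 0.0669% in LPS. The lowest Con library reached 1227 CPM and the highest LPS library 775 CPM, so the sums did not overlap. Markers of stem and progenitor cells, which divide, summed to 73.5 to 81.8 CPM in Con and 50.2 to 55.5 in LPS, with 1 of 6 higher and 2 lower in LPS. Most of that gap was that of Cd34, whose mean was 26.7 CPM in Con and 4.23 in LPS. Gata2 was also lower, Kit was higher, and Flt3, Myb and Cebpe did not pass. Markers of neutrophils and their precursors summed to 1202 to 1501 CPM in Con and 1818 to 2531 in LPS, with 6 of 10 higher and 2 lower. As a share of unscaled counts the neutrophil markers did not rise, with means of 0.201% in Con and 0.189% in LPS. No marker of either list was at 0 in any group. Dendritic cell markers, 3 of 4 tested higher in LPS and 0 lower, summed to 1190.1 to 1343 CPM in Con and 3804 to 4035 in LPS, most of the gap being that of Ccr7, whose mean was 142 CPM in Con and 2492 in LPS. Of 5 stromal markers tested 1 was higher (Pdgfrb, 1.16 and 5.26 CPM), 1 lower (Lepr, 47.5 and 5.28 CPM) and 3 did not pass. T and NK cell markers and B cell markers each summed to at most 8.52 CPM in every Con and LPS library, with Ncr1 at 0 in Con and Cd3e at 0 in LPS. The part of these cells in the levels of the replication genes was not tested.

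E2F factors recognise a short GC-rich motif with a run of T, and replication genes are textbook E2F targets. The promoter letters of the 39 genes were therefore read, whatever their call. RefSeq promoter windows, 250 bases before to 50 after the start of transcription on GRCm38.p6, matched 33 of the 39 genes in 41 windows; Mcm4, Gins1, Gins2, Rfc2, Pole and Ccne2 had none in the table. The letters searched on both strands were TTTCCCGC, TTTGGCGC, TTTCGCGC and TTTGCCGC. Where the core is GCGC, matches on opposite strands can overlap. They stood in 15 of the 41 windows (36.6%), in 15 genes, against 744 of the 32851 windows of the whole table (2.26%). In a list of other replication factors 11 of 38 windows held them (28.9%), and in a list of mitosis genes 1 of 24 windows (4.17%). The letters CCAAT, searched on both strands, stood in 24 of the 41 windows (58.5%), 37.4% of all windows and 75% of those of the mitosis genes. Of the 26 matched genes lower in LPS 13 held E2F-like letters, of the 5 higher genes 2 (Orc1 and Rfc3), and of the 2 that did not pass 0. The median log2 fold change, LPS against Con, was -1.07 in the 13 lower genes with the letters and -1.23 in the 13 without.

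Stretches around the matches of 4 lower genes follow, chosen as those with the smallest adjusted p whose match lies before the start and outside any exon of GENCODE M21. Each is written 5′ to 3′, from GRCm38.p6, on the gene's strand, with capitals for the E2F-like letters. They lie at chrX:93632256-93632323 (reverse strand), chr8:75109326-75109397 (forward strand), chr1:128359715-128359845 (reverse strand) and chr17:56304098-56304165 (forward strand). No annotated transcript overlaps the first 3, and that of Uhrf1 lies in an intron of another Uhrf1 transcript.
Pola1: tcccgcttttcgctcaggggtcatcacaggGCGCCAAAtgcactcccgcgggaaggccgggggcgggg
Mcm5: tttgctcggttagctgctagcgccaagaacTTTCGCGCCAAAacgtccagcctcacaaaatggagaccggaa
Mcm6: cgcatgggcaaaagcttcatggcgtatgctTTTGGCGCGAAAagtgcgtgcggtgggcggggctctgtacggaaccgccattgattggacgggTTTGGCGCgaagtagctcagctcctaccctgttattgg
Uhrf1: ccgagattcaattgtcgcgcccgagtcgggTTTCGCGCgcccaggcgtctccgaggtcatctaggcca
Mcm5 and the upstream site of Mcm6 each carry a pair of overlapping matches on opposite strands, and Mcm6 holds 1 more match nearer its start. A match describes letters and not binding by a factor.

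**Figure D2:**
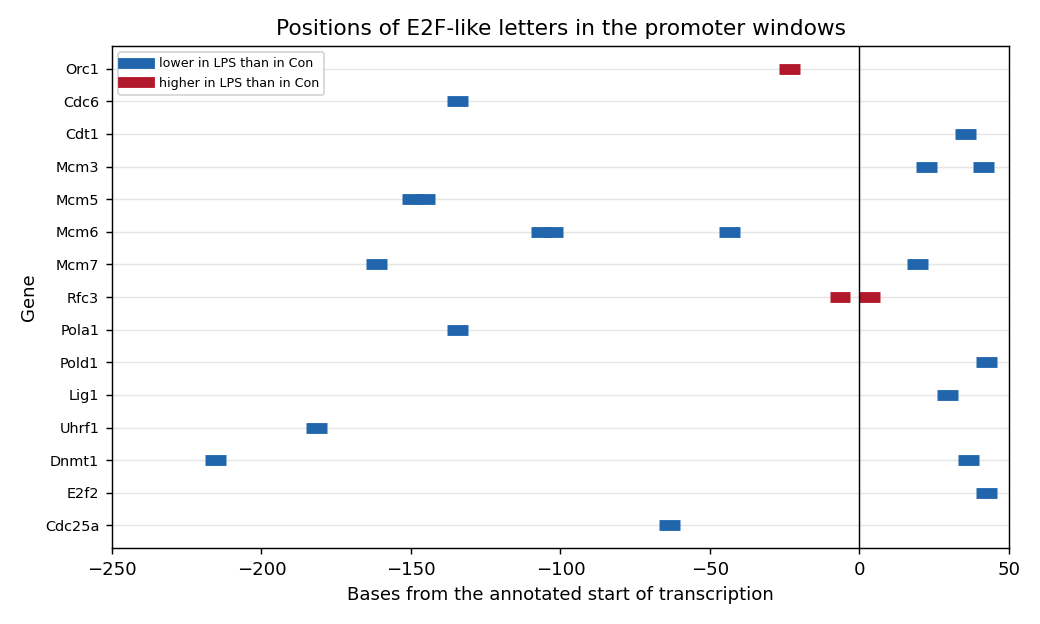
Positions of the E2F-like letters (bars) in the promoter windows of the 15 replication genes that hold them; the x axis is bases from the start of transcription (0), and colour is the call in LPS against Con. Matches spread over both sides of the start, and those of Cdt1, Mcm3, Pold1, Lig1 and E2f2 lie after it.

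Origin licensing genes, which build and load the replicative helicase, were lower in 9 of 10 cases and higher in 1. Beside this and the role counts that follow, 43% of all genes tested were called lower and 40% higher. Mcm7, a helicase ring subunit, had the smallest adjusted p of the role. It read 57.5, 55.02 and 54.2 CPM in Con and 15.6, 15.9, 14.9, 17.4 and 13.9 CPM in LPS. The groups were far apart (log2 fold change -1.84, SE 0.07, edgeR adjusted p = 3.79e-16). The other ring subunits fell by less: Mcm2 changed by -1.52 on the log2 scale, Mcm3 by -1.07, Mcm4 by -0.82, Mcm6 by -0.79 and Mcm5 by -0.76. Although these 6 proteins form 1 ring in equal numbers, the fold decrease of their RNAs ran from 1.69-fold for Mcm5 to 3.57-fold for Mcm7; differences between genes were not tested. The loaders Cdc6 and Cdt1 fell by a like amount, from 11.6 ± 0.699 to 6.11 ± 0.852 CPM and from 21.8 ± 2.33 to 11.2 ± 0.971 CPM (mean ± SD, n = 3 and 5). Orc6, an origin recognition subunit, changed by -0.52. Orc1, another subunit of that complex, went the other way, with 2.17, 2.02 and 2.49 CPM in Con and 5.15, 3.76, 4.17, 4.74 and 3.50 CPM in LPS. All 5 LPS libraries lay above Con at these low levels (log2 fold change 0.93, SE 0.18, edgeR adjusted p = 4.55e-05), and with library totals alone the value was 0.19 and did not pass.

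Genes that turn the loaded ring into an active helicase split evenly, 2 lower and 2 higher. This was near the split of all genes tested, 43% lower and 40% higher. Cdc45, which joins the ring at firing, read 17.4, 15.99 and 16.99 CPM in Con and 7.84, 7.27, 8.21, 8.34 and 5.77 CPM in LPS (log2 fold change -1.16, SE 0.09, edgeR adjusted p = 7.89e-11). Gins1, a subunit of the GINS complex, also fell (-0.90, SE 0.14). Gins2, a partner subunit of the same complex, read 10.6, 10.8 and 11.6 CPM in Con and 21.7, 16.8, 19.4, 20.7 and 15.4 CPM in LPS. Every LPS library was higher in Gins2 (log2 fold change 0.78, SE 0.09, edgeR adjusted p = 4.42e-08). Mcm10, an initiation factor, rose as well, from 13.2, 11.5 and 11.5 CPM to 24.5, 19.4, 21.3, 24.01 and 17.7 CPM (log2 fold change 0.83, SE 0.13, edgeR adjusted p = 2.76e-06). With library totals alone neither passed, at 0.03 for Gins2 and 0.08 for Mcm10.

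The sliding clamp and its loader were also mixed, with 3 of 5 genes lower and 2 higher, beside 43% and 40% of all genes. Rfc3, a loader subunit, had the smallest adjusted p of the role and rose. Its levels were 10.9, 9.86 and 10.2 CPM in Con and 23.6, 21.6, 25.3, 24.8 and 22.03 CPM in LPS, 2.27-fold higher (log2 fold change 1.19, SE 0.08, edgeR adjusted p = 6.85e-12). The loader subunits Rfc4, Rfc2 and Rfc5 fell by 1.62, 1.10 and 0.46 on the log2 scale. Rfc3 thus differed in direction from 3 partners in its complex under each of the 4 scalings. Pcna, the clamp itself, read 125, 115 and 106 CPM in Con and 147, 133, 132, 132 and 139 CPM in LPS. The gap between the groups was small (log2 fold change 0.25, SE 0.06, edgeR adjusted p = 0.00132) and its sign changed under upper-quartile scaling and library totals.

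Of the 5 polymerase genes 4 were lower, each by over 2-fold. Pold1, the catalytic subunit of polymerase delta, read 31.02, 32.4 and 33.1 CPM in Con and 7.00, 5.94, 9.37, 8.40 and 8.47 CPM in LPS, a 4.10-fold decrease (log2 fold change -2.04, SE 0.11, edgeR adjusted p = 4.60e-14). Pola1, the catalytic subunit of polymerase alpha, read 21.3, 18.99 and 18.2 CPM in Con and 5.33, 4.54, 4.72, 5.64 and 3.07 CPM in LPS (log2 fold change -2.06, SE 0.14, edgeR adjusted p = 6.24e-12). Prim1, the primase that makes the RNA primers, changed by -2.05, and Pole, the catalytic subunit of the leading-strand polymerase, by -1.63. Pola2, the regulatory subunit that binds Pola1, was 22.5 ± 0.777 CPM in Con and 21.2 ± 1.32 CPM in LPS (mean ± SD, n = 3 and 5). Its log2 fold change of -0.08 (95% interval -0.22 to 0.05, edgeR adjusted p = 0.245) did not pass, and it was called lower with upper-quartile scaling (-0.36) and library totals (-0.83).

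The pair of genes that finish lagging-strand fragments also differed. Lig1, the ligase, read 27.5, 24.8 and 24.1 CPM in Con and 10.2, 11.6, 11.03, 12.7 and 10.3 CPM in LPS, a 2.28-fold decrease (log2 fold change -1.19, SE 0.10, edgeR adjusted p = 3.88e-10). Fen1, the flap nuclease, was 33.7 ± 2.05 CPM in Con and 33.3 ± 4.03 CPM in LPS, a value of -0.02 that did not pass (95% interval -0.18 to 0.14, edgeR adjusted p = 0.838); it passed as lower with upper-quartile scaling (-0.30) and library totals (-0.76).

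Nucleotide supply genes were lower in 3 of 4 cases. Rrm2, the S phase subunit of ribonucleotide reductase, read 57.7, 55.6 and 56.7 CPM in Con and 17.4, 16.8, 18.3, 18.97 and 15.5 CPM in LPS (log2 fold change -1.70, SE 0.07, edgeR adjusted p = 6.40e-16). Its partner Rrm1 fell less (-0.84, SE 0.10). Tk1, the thymidine salvage kinase, went from 16.6, 17.6 and 18.04 CPM to 3.83, 2.85, 1.84, 4.32 and 2.58 CPM, a 5.63-fold decrease (log2 fold change -2.49, SE 0.15, edgeR adjusted p = 3.64e-13). Tyms, which makes thymidylate by synthesis, rose from 13.9, 14.04 and 16.5 CPM to 37.5, 32.8, 32.97, 36.8 and 34.4 CPM (log2 fold change 1.23, SE 0.08, edgeR adjusted p = 2.12e-12). The salvage and synthesis genes for the same nucleotide therefore moved in opposite directions, also under library totals. Tyms had values that were not whole in 18 of 18 libraries and Pold1 in 2, so reads shared with other loci may enter their counts.

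All 4 genes of chromatin copying were lower, beside 43% of all genes tested, or 70.6% with library totals. Dnmt1, the maintenance DNA methyltransferase, read 119, 124 and 117 CPM in Con and 37.5, 39.9, 38.97, 41.1 and 39.9 CPM in LPS. This was a 3.05-fold decrease (log2 fold change -1.61, SE 0.06, edgeR adjusted p = 3.19e-16). Uhrf1, which brings Dnmt1 to newly copied DNA, changed by -0.97. The histone chaperone subunits Chaf1b and Chaf1a changed by -1.45 and -0.74.

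All 5 genes of the G1/S switch were lower too, beside 43% of all genes tested, or 70.6% with library totals. Among the 39 genes, whose order the choice of scaling can hardly change, E2f2, an activating E2F factor, had the largest decrease. It read 39.9, 44.05 and 48.04 CPM in Con and 7.48, 6.97, 7.72, 7.50 and 6.63 CPM in LPS, 6.05-fold lower (log2 fold change -2.60, SE 0.10, edgeR adjusted p = 1.47e-16). E2f1, a related activator, fell by 1.23 and the cyclin E genes Ccne1 and Ccne2 by 0.94 and 0.65 on the log2 scale. Cdc25a, the phosphatase that activates the cyclin E kinase, moved least, with 15.7, 15.9 and 16.3 CPM in Con and 13.6, 14.7, 13.3, 12.3 and 11.2 CPM in LPS (log2 fold change -0.29, SE 0.08, edgeR adjusted p = 0.00317).

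**Figure D3:**
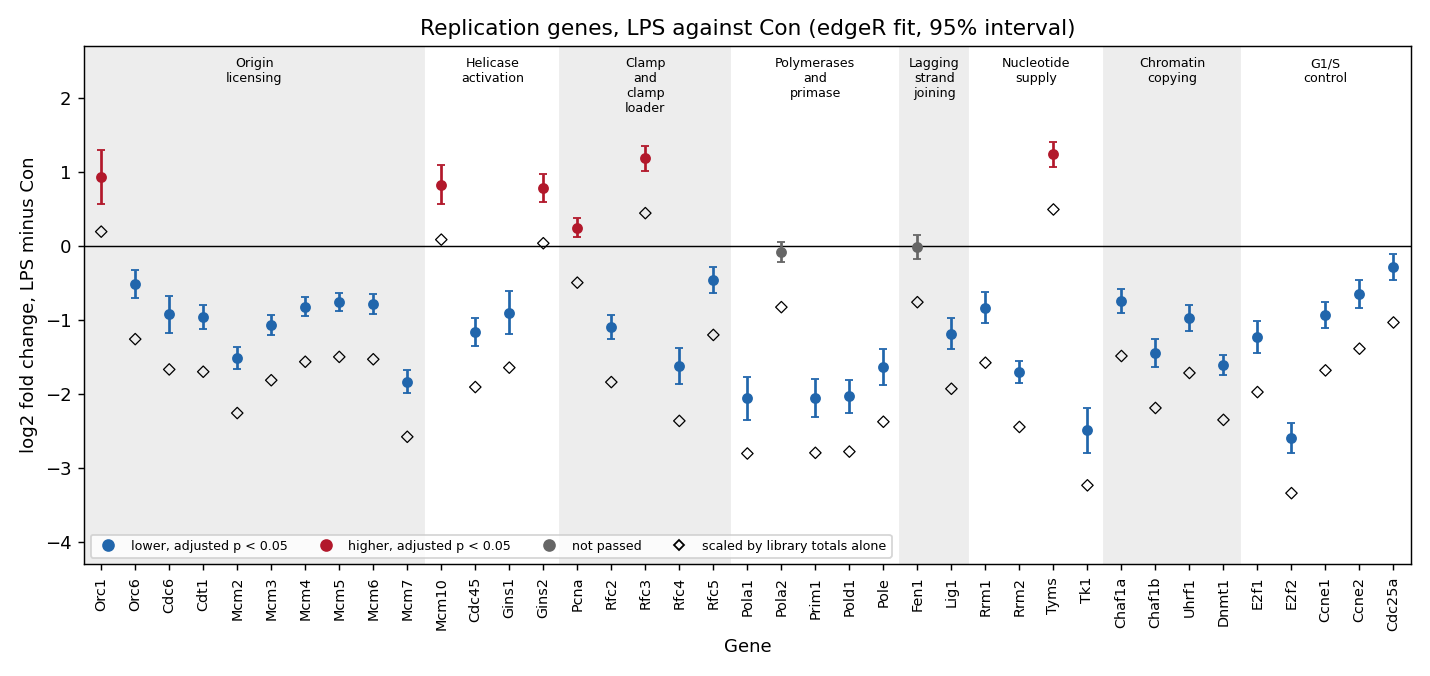
Log2 fold change, LPS minus Con, of the 39 replication genes by role (points, edgeR fit over 18 libraries, bars for the 95% interval) with the value under library totals alone (open diamonds). Under TMM 31 genes lie below 0 and 6 above; under library totals Pcna lies below 0 and Mcm10, Gins2 and Orc1 lie near 0.

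Other genes of the pathway, from lists that hold none of the 39, were compared in the same fit, in which 43% of all genes were called lower and 40% higher. Of 40 other replication factors 31 were lower and 7 higher in LPS than in Con, with a median of -0.93. Dna2, a nuclease for lagging-strand flaps, went from 71.03 to 8.18 CPM (-3.12), and Rpa1, which coats single-stranded DNA, from 66.3 to 21.6 CPM (-1.62). Mcmbp, which binds Mcm proteins, and Timeless, a fork protection factor, were higher at 1.72 and 1.92. Of 17 further nucleotide genes 12 were lower and 3 higher: Cad, which starts pyrimidine synthesis, and Mthfd1, a folate enzyme, changed by -2.27 and -2.07, while Dck, a deoxynucleoside kinase, rose by 1.94. Samhd1, which breaks down deoxynucleotides, rose from 275 to 1982 CPM (2.85). Of 15 S phase chromatin genes 9 were lower and 2 higher, among them Asf1b, a histone chaperone, at -1.80 and Hat1, a histone acetyltransferase, at 1.55.

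Upstream of the switch the picture was mixed. Of 24 other G1/S regulators 14 were lower and 7 higher. Ccnd2, a cyclin D gene, rose from 101 to 2600.5 CPM (4.68), while Cdk4, a cyclin D kinase, fell from 76.5 to 21.5 CPM (-1.83). Tfdp2, a binding partner of E2F, and Rbl2, a retinoblastoma relative, changed by -3.15 and -1.31. Of 8 tested inhibitors of cyclin-dependent kinases and proliferation 5 were higher and 2 lower. Cdkn1a, which encodes p21, rose from 284 to 1169 CPM (2.04), Cdkn2b changed by 3.11 from 0.747 CPM, Btg1 by 0.94 and Cdkn2c by -2.41. Of 30 mitosis genes, given for comparison, 28 were lower and 1 higher, with a median of -1.67. Ccna2, Cdc20 and Cdca8 changed by -2.04, -1.96 and -1.53, and the 1 higher gene was Pttg1, securin (3.47). No test of the difference between the replication and mitosis genes was made. With library totals alone 36 of the 40 replication factors, 15 of the 17 nucleotide genes, 14 of the 15 chromatin genes, 20 of the 24 G1/S regulators and 29 of the 30 mitosis genes were lower, and of the 8 inhibitors 3 were higher (Cdkn1a, Cdkn2b and Btg1) and 3 lower; with that scaling 70.6% of all genes were lower.

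The next comparisons ask how far the AB groups differed from LPS. The 39 genes divided. In STSABs 11 were higher than in LPS, 8 lower, and 20 did not pass, with values of -0.19 to 0.18 for the latter. Over all genes tested 28.4% were called higher and 29% lower, and the median of the 39 was 0.05. In UVABs 11 were higher, 6 lower and 22 did not pass (-0.19 to 0.14), against 28.6% higher and 28.8% lower over all genes, with a median of 0.05; the median of all genes was within 0.01 of 0 in both comparisons. Without LPS library 5 the median of the 39 was 0.012 in STSABs and -0.014 in UVABs. These shares of the 39, 28.2% higher in both and 20.5% or 15.4% lower, stand near or below the background. Without overlap of libraries 8 were higher and 3 lower in STSABs (20.7% and 21.8% of all genes), and 7 higher and 4 lower in UVABs (20.4% and 21.9%). None of the 39 changed by 2-fold or more in either. Both comparisons use the same 5 LPS libraries, so their values are not independent. With library totals alone 14 were higher and 5 lower in STSABs, which took the higher share of calls from 57.9% to 73.7%; over all genes the same change of scaling took it from 49.5% to 56.3%. Without the libraries numbered 2 of both AB groups 10 genes were higher and 6 lower in STSABs, and 10 and 6 in UVABs.

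Markers of some other cell types were higher in the AB groups than in LPS. Neutrophil and precursor markers summed to 3261 to 4729 CPM in STSABs and 3194 to 4214 in UVABs, with 10 of 10 and 9 of 10 higher than in LPS. Stem and progenitor markers summed to 98.8 to 155 CPM and 93.6 to 122, with 5 of 6 and 4 of 6 higher and 1 lower in each. Among them the mean of Gata2 was 15.3 CPM in LPS, 59.8 in STSABs and 54.4 in UVABs. That of Kit was 12.9, 10.6 and 10.2 CPM. Mast cell and basophil markers summed to 34.4 to 62.5 CPM in LPS, 60.7 to 87.8 in STSABs and 49.8 to 85.5 in UVABs. For dendritic cells 3 of 4 tested markers were higher and 1 lower in each AB group, and for stromal cells 1 of 5 was higher in each and 1 lower in STSABs. None of the 3 tested T and NK cell markers and none of the 3 tested B cell markers passed. The part of these cells in the differences between the AB groups and LPS was not tested.

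**Figure D4:**
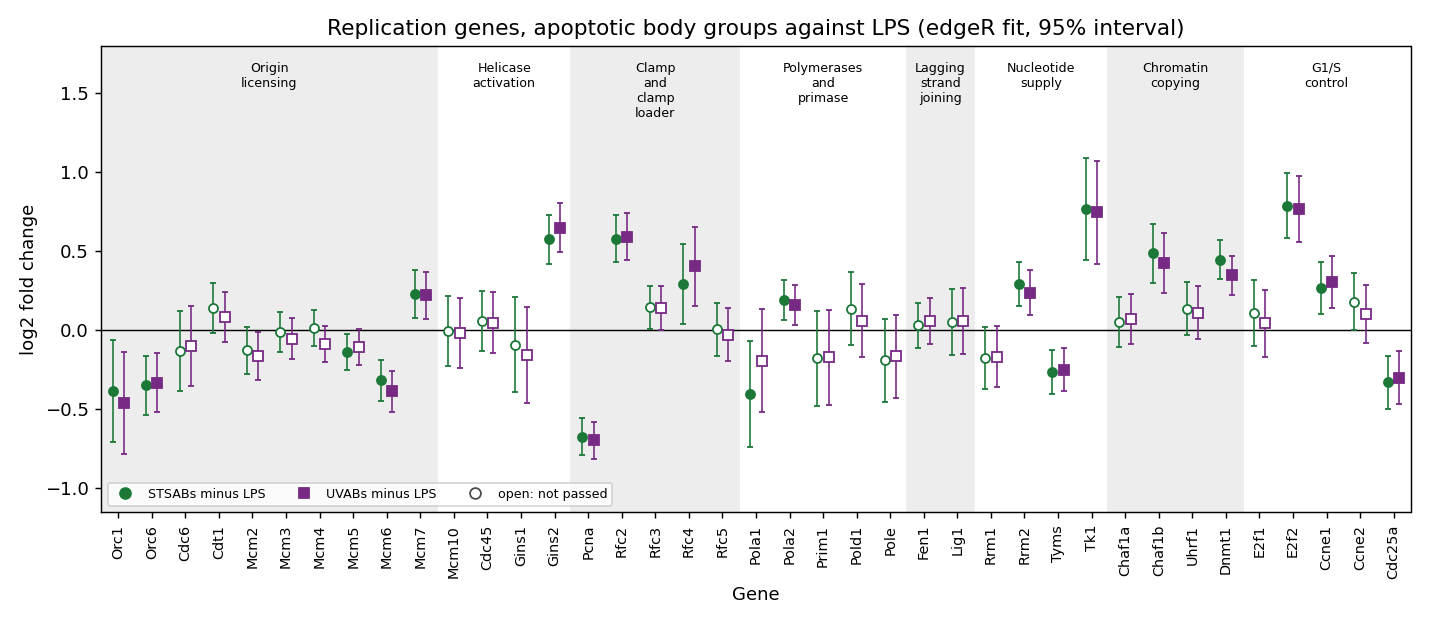
Log2 fold change of the 39 replication genes against LPS in STSABs (green circles) and UVABs (purple squares), with 95% intervals; filled symbols passed an adjusted p of 0.05. Most values lie within 0.5 of 0, E2f2 and Tk1 reach highest and Pcna lies lowest in both.

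Among the G1/S genes E2f2 was higher in both AB groups. It read 12.98, 11.3, 13.2, 13.6 and 11.7 CPM in STSABs and 14.4, 9.58, 13.8, 11.4 and 12.7 CPM in UVABs, beside 7.48, 6.97, 7.72, 7.50 and 6.63 CPM in LPS. Each AB library lay above each LPS library and below each Con library (log2 fold change 0.79, SE 0.10, edgeR adjusted p = 8.41e-07 for STSABs, and 0.77, SE 0.10, edgeR adjusted p = 1.25e-06 for UVABs). Ccne1 was higher by 0.27 in STSABs and 0.31 in UVABs. Cdc25a, lower in LPS than in Con, was lower again than LPS, with 9.33, 10.5, 10.2, 11.3 and 10.6 CPM in STSABs and 10.7, 8.98, 10.4, 11.5 and 11.4 CPM in UVABs. Its log2 fold changes against LPS were -0.33 in STSABs and -0.30 in UVABs, with overlap in both. E2f1 and Ccne2 did not pass, at 0.11 and 0.18 in STSABs and 0.04 and 0.10 in UVABs.

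In the clamp and its loader the directions parted. Pcna, the clamp, read 87.8, 81.8, 85.7, 93.8 and 79.1 CPM in STSABs and 80.8, 88.1, 84.3, 90.3 and 78.8 CPM in UVABs, below each of the LPS values of 147, 133, 132, 132 and 139 CPM. Its decrease was the largest of the 39 against LPS (log2 fold change -0.67, SE 0.06, edgeR adjusted p = 1.91e-09 for STSABs, -0.69 and edgeR adjusted p = 1.28e-09 for UVABs). Rfc2, a loader subunit, read 25.4, 26.6, 22.8, 24.7 and 26.4 CPM in STSABs and 25.9, 25.3, 25.6, 24.05 and 26.4 CPM in UVABs, above each of the LPS values of 19.3, 16.2, 13.97, 16.7 and 18.2 CPM (log2 fold change 0.58, SE 0.07, edgeR adjusted p = 5.65e-07 for STSABs, 0.59 and edgeR adjusted p = 4.12e-07 for UVABs). Rfc4 was higher by 0.29 in STSABs and 0.40 in UVABs; the call in STSABs was lost in 4 of 10 alternative settings and with 9 of 18 libraries left out in turn, with adjusted p up to 0.143. Rfc3 and Rfc5 did not pass.

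Of the helicase activation genes Gins2 stood higher still than in LPS. It read 29.6, 26.4, 27.5, 28.5 and 28.3 CPM in STSABs and 30.01, 28.3, 31.2, 29.4 and 28.8 CPM in UVABs, above each LPS value (log2 fold change 0.58, SE 0.07, edgeR adjusted p = 1.02e-06 for STSABs, 0.65 and edgeR adjusted p = 1.88e-07 for UVABs). Cdc45 read 7.76, 7.17, 7.55, 8.65 and 7.81 CPM in STSABs and 7.28, 7.25, 7.48, 8.68 and 8.05 CPM in UVABs and did not pass in either (0.06 in STSABs and 0.05 in UVABs). Mcm10 likewise did not pass (-0.0039 in STSABs and -0.02 in UVABs), with 20.04, 17.7, 21.7, 23.3 and 23.9 CPM in STSABs and 20.98, 15.99, 21.3, 24.3 and 23.1 CPM in UVABs. Gins1 was at -0.09 in STSABs and -0.16 in UVABs.

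Of the 10 licensing genes 4 were lower and 1 higher in STSABs, and 3 were lower and 1 higher in UVABs. Over all genes tested 29% were called lower and 28.4% higher in STSABs, and 28.8% and 28.6% in UVABs. Mcm6 read 38.2, 37.1, 36.8, 38.1 and 37.8 CPM in LPS, 29.02, 33.1, 28.9, 32.8 and 27.3 CPM in STSABs and 28.6, 27.97, 26.96, 32.4 and 27.96 CPM in UVABs. No AB library reached the LPS values of Mcm6 (-0.32 in STSABs and -0.39 in UVABs, edgeR adjusted p = 1.72e-04 and 1.87e-05). Orc6 read 8.80, 7.15, 7.72, 7.86 and 9.39 CPM in LPS, 6.31, 6.69, 5.81, 7.19 and 6.17 CPM in STSABs and 5.82, 6.83, 7.07, 6.81 and 5.99 CPM in UVABs (-0.35 in STSABs and -0.33 in UVABs); STSABs overlapped LPS and UVABs did not. Orc1 read 3.82, 3.34, 2.64, 3.92 and 2.58 CPM in STSABs and 2.73, 2.28, 2.97, 4.02 and 3.47 CPM in UVABs, with overlap (-0.39 in STSABs and -0.46 in UVABs); its call was lost with 5 of 18 libraries left out in turn in STSABs and without LPS library 1 in UVABs. Mcm5, at 25.2, 25.3, 27.01, 25.5 and 25.3 CPM in STSABs and 26.4, 24.7, 26.6, 28.9 and 24.4 CPM in UVABs against 28.4, 29.3, 28.9, 28.3 and 26.1 in LPS, was called lower in STSABs at -0.14 and did not pass in UVABs at -0.11; 7 of 10 alternative settings ended the call in STSABs. Leaving out LPS library 1, 3 or 4 or STSABs library 5 lowered the count of lower genes in STSABs from 8 to 5, since Mcm5, Orc1 and Pola1 did not pass. The 1 higher licensing gene was Mcm7, with 15.9, 19.5, 17.8, 20.3 and 17.7 CPM in STSABs and 16.4, 19.1, 18.6, 18.7 and 17.7 CPM in UVABs (0.23 in STSABs and 0.22 in UVABs), overlapping LPS. Mcm2, Mcm3, Mcm4, Cdc6 and Cdt1 did not pass in either AB group.

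The polymerase genes moved little against LPS. Pola1 read 3.36, 3.04, 3.41, 4.74 and 3.05 CPM in STSABs and 4.24, 3.41, 3.50, 5.42 and 3.82 CPM in UVABs; it was called lower in STSABs (log2 fold change -0.40, SE 0.16, edgeR adjusted p = 0.0368) and did not pass in UVABs at -0.19. That call was lost with 8 of 18 libraries left out in turn. Pola2 was higher by 0.19 in STSABs and 0.16 in UVABs, the latter call being lost without LPS library 1, 2 or 3 or UVABs library 2 or 3. Pold1 did not pass (0.14 in STSABs and 0.06 in UVABs), with 7.82, 10.2, 8.80, 8.77 and 7.58 CPM in STSABs and 7.28, 8.02, 8.26, 7.57 and 9.75 CPM in UVABs, and neither did Prim1 or Pole. Fen1 and Lig1 did not pass either; Lig1 read 11.2, 11.3, 12.3, 12.4 and 10.6 CPM in STSABs and 10.5, 14.7, 9.15, 12.5 and 11.2 CPM in UVABs.

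Nucleotide supply genes repeated the contrast of Tk1 and Tyms with the signs exchanged. Tk1 read 4.69, 6.08, 5.33, 4.50 and 5.76 CPM in STSABs and 5.34, 5.09, 5.94, 5.18 and 4.41 CPM in UVABs, above every LPS library (0.77 in STSABs and 0.75 in UVABs, edgeR adjusted p = 2.50e-04 and 3.47e-04). Tyms read 31.1, 26.9, 31.4, 30.1 and 25.7 CPM in STSABs and 29.5, 28.4, 29.4, 28.1 and 31.3 CPM in UVABs, below every LPS library (-0.26 in STSABs and -0.25 in UVABs, edgeR adjusted p = 0.00171 and 0.00269). Rrm2 read 19.2, 23.5, 21.6, 20.7 and 21.7 CPM in STSABs and 19.9, 18.4, 21.97, 22.01 and 20.3 CPM in UVABs and was higher by 0.29 in STSABs and 0.24 in UVABs. Rrm1 did not pass (-0.18 in STSABs and -0.17 in UVABs). Of the chromatin genes Dnmt1 read 50.1, 61.9, 53.1, 53.2 and 51.1 CPM in STSABs and 49.1, 50.9, 50.4, 55.3 and 45.6 CPM in UVABs. Every AB library exceeded every LPS library in Dnmt1 (0.45 in STSABs and 0.35 in UVABs, edgeR adjusted p = 1.32e-06 and 3.32e-05), and none reached Con. Chaf1b was higher by 0.49 in STSABs and 0.43 in UVABs, while Chaf1a and Uhrf1 did not pass.

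**Figure D5:**
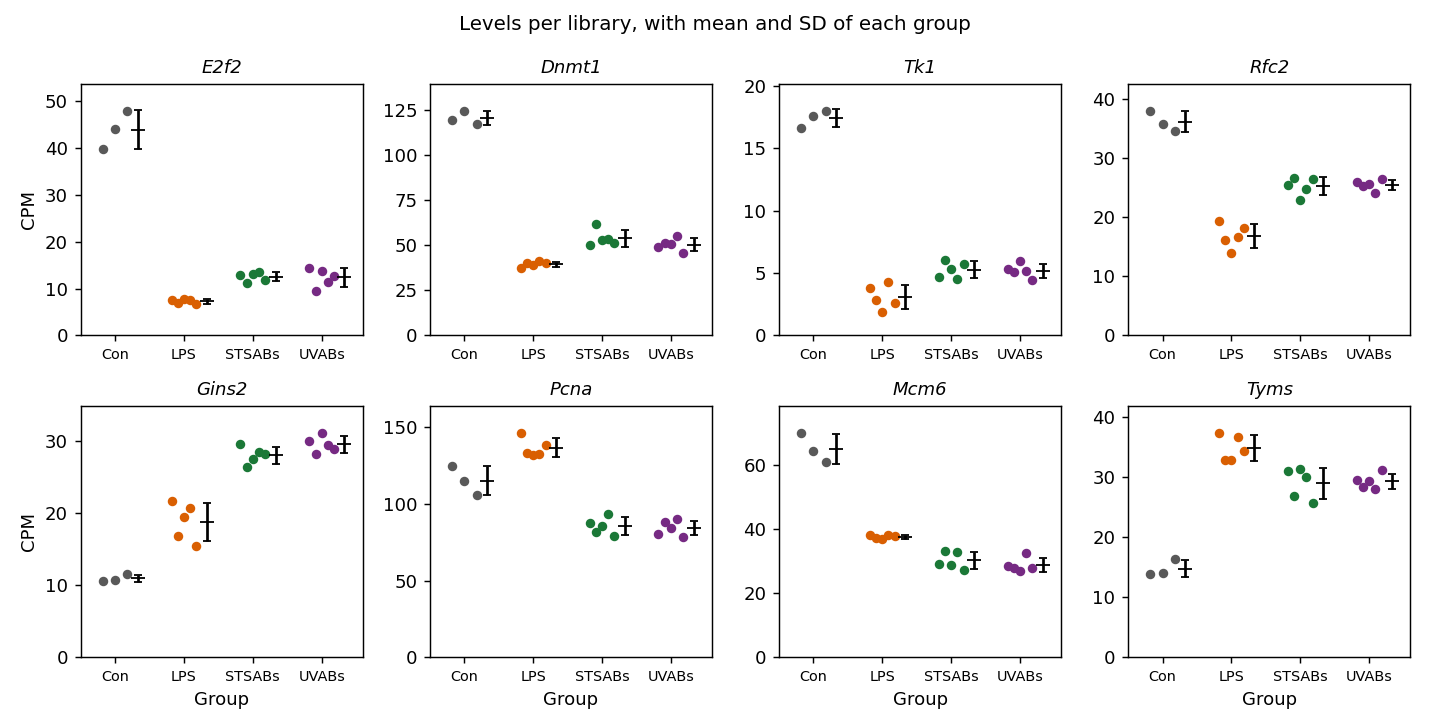
Level in CPM after TMM scaling of 8 replication genes in each library (points) with the mean and SD of the group (bars), for 3 Con libraries and 5 of each other group. E2f2, Dnmt1, Tk1 and Rfc2 lie lowest in LPS and highest in Con, Gins2 lies highest in the AB groups, and Pcna, Mcm6 and Tyms lie lower in the AB groups than in LPS.

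The other pathway lists against LPS gave 8 of 40 replication factors higher and 7 lower in STSABs, and 9 and 8 in UVABs. Over all genes tested 28.4% were called higher and 29% lower in STSABs, and 28.6% and 28.8% in UVABs. Timeless rose in both (0.64 in STSABs and 0.60 in UVABs) and Orc2, an origin recognition subunit, fell in both (-0.64 in STSABs and -0.64 in UVABs). Of 17 nucleotide genes 4 were higher and 4 lower in STSABs and 3 and 4 in UVABs, with Dguok, a mitochondrial deoxyguanosine kinase, at 0.72 in STSABs and 0.69 in UVABs. Of 15 chromatin genes 3 were higher and 7 lower in both, with Hat1 at 0.33 in STSABs and 0.37 in UVABs and the proliferation marker Mki67 at -0.36 in STSABs and -0.36 in UVABs. Of 24 G1/S regulators 5 were higher and 10 lower in STSABs and 8 and 11 in UVABs. Cdk2, the partner kinase of cyclin E, was at 0.75 in STSABs and 0.75 in UVABs and the cyclin D gene Ccnd3 at 1.01 in STSABs and 1.03 in UVABs. Of 8 tested kinase and proliferation inhibitors 4 were higher and 2 lower in both, with Cdkn1b, which encodes p27, at 1.30 in STSABs and 1.27 in UVABs, Cdkn2d at 1.29 in STSABs and 1.35 in UVABs, Cdkn1a at 0.50 in STSABs and 0.51 in UVABs and Cdkn2b at -1.22 in STSABs and -1.17 in UVABs. Of 30 mitosis genes 9 were higher and 2 lower in both, with Pttg1 at 0.33 in STSABs and 0.36 in UVABs and Mad2l1, a spindle checkpoint gene, at -0.54 in STSABs and -0.58 in UVABs.

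UVABs and STSABs were compared directly to ask whether bodies induced by UV and by STS gave different levels. None of the 39 genes passed in edgeR, nor did any of the 12465 genes tested (0%). Unadjusted p-values under 0.05 were found for 0 of the 39 and for 198 genes in all (1.59%); DESeq2 called 0, with 0 of the 39 and 151 genes under 0.05 unadjusted. Mcm4 read 24.04, 23.9, 24.5, 26.1 and 25.8 CPM in STSABs and 22.4, 20.9, 23.8, 24.5 and 24.6 CPM in UVABs, with the smallest p of the 39 (-0.10, 95% interval -0.21 to 0.02, edgeR adjusted p = 1). The values overlapped, as they did for Dnmt1 (-0.10, -0.22 to 0.02), Mcm6 (-0.07, -0.20 to 0.06) and Pola1 (0.21, -0.13 to 0.55). The size of 0.21 for Pola1 was the largest of the 39. The 95% intervals ran from -0.41 at their lowest (Orc1) to 0.55 at their highest (Pola1), and 38 of 39 lay within 0.5 of 0. With the replicate number as a block in a fit of these 10 libraries, which deviate together by number, 0 of the 39 and 1 gene in all were called, and 495 genes (3.97%) had an unadjusted p under 0.05. Of the 39, Dnmt1 had an unadjusted p of 0.0394 (edgeR adjusted p = 0.997).

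Against Con the AB groups gave 5 higher and 32 lower of the 39 each. Over all genes 40% were higher and 42.6% lower in STSABs, and 40.2% and 42.4% in UVABs; the median of the 39 was -0.96 in STSABs and -1.002 in UVABs. Both comparisons share the 3 Con libraries. No overlap with Con was found for 32 lower genes in each (40.4% and 40.2% of all genes), and for 5 higher genes in STSABs (37.2%) and 4 in UVABs (37.5%). Gins2, Rfc3, Tyms, Mcm10 and Orc1 were the higher genes in both, at 1.35, 1.33, 0.97, 0.82 and 0.55 in STSABs and 1.43, 1.33, 0.98, 0.81 and 0.47 in UVABs; with library totals 3 were higher in each. Pcna was lower than in Con (-0.43 and -0.45). The largest decreases were those of Pola1 (-2.47 and -2.25) and Prim1 (-2.23 and -2.23), and E2f2 stood at -1.81 and -1.83. Summed over the 39 genes the level was 725 ± 21.4 CPM in STSABs and 716 ± 22.4 CPM in UVABs (SD, n = 5 each), beside 742 ± 30.2 CPM in LPS and 1248 ± 25.5 CPM in Con. The ranges of the sums in the AB groups overlapped that of LPS and lay below that of Con. Pcna was the largest part of the sum in LPS, with means of 137 CPM in LPS, 85.6 in STSABs and 84.4 in UVABs. That gap was wider than the gap between the sums, so the sums do not describe the other genes.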

How the data were processed

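The authors deposited estimated counts per gene symbol without normalization, made with HISAT2 and mm39 per the submitters' processing notes; for the counting tool, annotation, strand setting and versions, no value is given in the sources used here. Libraries were paired-end and marked strand with dUTP, per the labels' protocols. Of the values 6.35% were not whole, and all were rounded. The titles UVAB4 and UVAB5 were placed in UVABs by the series' design text. No coordinates of the files' build were used; promoter coordinates and letters are RefSeq's, on GRCm38.p6.

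Genes were filtered with filterByExpr (12465 kept, 39 of 39 members) and scaled by TMM. edgeR 4.0.16 (R 4.3.3, limma 3.58.1) fitted a quasi-likelihood model to all 18 libraries with group means, tested by F-test with Benjamini-Hochberg adjustment over all genes at 0.05. SE is the log2 fold change over the root of F. The fit was tested on simulated data. Alternatives were DESeq2 1.42.0 as test and for size factors, upper-quartile scaling, library totals, other filters (none, or 5 CPM in 3 libraries), fits of the groups compared, replicate terms and each library left out; the block fit of the AB groups alone was added after seeing the data.

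Values in every library are given for the gene of each role with the smallest adjusted p in LPS against Con, the 4 with the smallest adjusted p in each comparison of AB groups, and genes called against the direction of most. Up to 4 genes per list were named by smallest adjusted p. The result of 1 marker list is not reported here. The 39 genes and the lists were drawn up with earlier results of these data known, although no rule reads the values. Same-numbered libraries of STSABs and UVABs deviated together (correlation over 0.1 in all 5 pairs, from 0.143 to 0.687), so their numbers were taken to pair them. Between other groups only some same-numbered pairs passed 0.1, and their numbers were not taken to pair them. These were Con 1 with LPS 1 (0.144), Con 3 with LPS 3 (0.207) and LPS 1 with STSABs 1 (0.105). No library matched another of its group within sampling noise (chi-square per gene 2.30 or more).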

Additional observations from a re-analysis of the deposited data

Results flagged for a closer look

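In 5 of the 117 sets of 5 libraries (39 genes in 3 groups) 1 library lay far from the other 4 by Dixon's criterion at 95%, which chance meets in about 1 of 20 sets. Mcm5, a helicase subunit, was high in STSABs 3 (27.01 CPM against 25.2 to 25.5 CPM), Pola1, of polymerase alpha, was high in STSABs 4 (4.74 CPM against 3.04 to 3.41 CPM), and Dnmt1, the maintenance methyltransferase, was high in STSABs 2 (61.9 CPM against 50.1 to 53.2 CPM). Rfc5, a clamp loader subunit, was low in UVABs 2 (11.6 CPM against 15.2 to 16.2 CPM), and Fen1, the flap nuclease, was low in LPS 5 (26.4 CPM against 33.9 to 36.9 CPM). The criterion for a difference between the AB preparations was met by none of the 39 genes.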

How the results depend on the processing

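In LPS against Con 31 genes were lower and 6 higher under all alternatives but upper-quartile scaling (33 and 5), library totals (34 and 2) and the stricter filter, which drops Orc1 (31 and 5). Fen1 in LPS against Con changed sign around 0 with DESeq2 size factors (0.000695) and the DESeq2 test (0.000745), and ranged from -0.065 to 0.055 with libraries left out. Pcna was at -0.032 with upper-quartile scaling and -0.50 with library totals. In STSABs against LPS 5 genes were lower with library totals and 5 to 9 with libraries left out; for UVABs this range was 6 to 9. With libraries left out Cdc45 ranged from -0.023 to 0.10 in STSABs against LPS and from -0.031 to 0.091 in UVABs against LPS, Pold1 in UVABs from -0.023 to 0.13 and Lig1 in UVABs from -0.041 to 0.13; Lig1 was at -0.041 without the libraries numbered 2 of both AB groups. With library totals 3 genes were higher than Con in STSABs and 3 in UVABs; with libraries left out the count in UVABs was 4 to 5. The causes of these changes were not tested. With the replicate number as a block over all libraries 6 genes were higher and 31 lower in LPS against Con and 0 passed in UVABs against STSABs, and in the paired fit of the AB groups alone 0 of the 39 and 1 of all genes passed. The block over all libraries gave 9 lower and 11 higher genes in STSABs against LPS and 8 lower and 11 higher in UVABs against LPS. Across the 4 groups 8 of 24 same-numbered pairs correlated over 0.1, and 11 of 18 libraries were closest to one with their own number. Genes at a few CPM, such as Orc1 and Tk1, have wide intervals at this depth.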
